A study of Homo sapiens with 24 samples.

Results

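The 36 genes described here encode subunits of integrins and laminins: 17 integrin alpha subunits, 8 integrin beta subunits and 11 laminin chains. They were taken by name from these gene families, through GENCODE v29 symbols matched to the Ensembl identifiers of the count tables, out of 57500 genes, of which 41103 had a count in any library.

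RNA was sequenced from multicellular spheroids of FaDu and SAS, established human lines of head and neck squamous cell carcinoma (HNSCC), in 8 groups of 3 libraries each (24 libraries). Each line was left untreated (control, 37 °C), irradiated (RT, where FaDu received 7 Gy and SAS spheroids 10 Gy), heated (HT, 42.5 °C for 60 min), or heated and then irradiated with the same dose (HT + RT), and collected 0.5 h later. The study compared these groups to find which pathways respond to heat, to irradiation and to their combination. Each line stands for a single tumor, the spheroids were grown without stromal cells, and the irradiation dose differs between the lines. Total counts per library ran from 15203484 to 29452514, with a median of 18378943, and the 36 genes took 0.339% to 0.39% of them in FaDu and 0.553% to 0.653% in SAS.

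Integrins are receptors in the cell membrane that pair an alpha with a beta subunit and link the matrix outside the cell to the actin or keratin cytoskeleton inside it. Laminins are trimers of an alpha, a beta and a gamma chain and are the main adhesive proteins of basement membranes. Squamous epithelium is anchored by a laminin of LAMA3 and LAMB3 chains, which the integrin of ITGA6 and ITGB4 binds in hemidesmosomes and the integrin of ITGA3 and ITGB1 binds at focal contacts, while ITGA2 pairs with ITGB1 as a collagen receptor and ITGA5 with ITGB1 as the main fibronectin receptor.

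Among the libraries, replicate 1 of FaDu stood apart, over all genes as well as for the members. In FaDu controls the chi-square per gene against counting noise, over genes with enough counts, was 15.9 and 15.1 for replicate 1 against replicates 2 and 3 and 3.51 between those 2, and replicate 1 was likewise the farthest in the other FaDu conditions. In SAS controls it was 10.3 and 9.06 for replicate 3 against replicates 1 and 2 and 4.61 between those 2. The farthest SAS replicate was not the same in every condition. Of the 27 members with a group mean of at least 1 CPM (counts scaled to library size) in any of the 8 groups, replicate 1 was the highest FaDu library in all 4 conditions for 10 members (ITGA2, ITGA3, ITGA6, ITGB1, ITGB2, ITGB4, ITGB5, LAMA3, LAMB3 and LAMC1) and the lowest in all 4 for 4 members (ITGAV, LAMA1, LAMA5 and LAMB2). FaDu replicate 2 held such a place for 1 member and replicate 3 for 0. In SAS, replicates 1 to 3 were the highest in all 4 conditions for 2, 2 and 5 members and the lowest for 3, 1 and 2. The replicates are stated to be independent experiments, so p-values here measure the spread between those. Some values that rest on FaDu replicate 1 are given with and without it, a choice made after the values had been seen. For others the value without it is not given.

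Levels within a line were compared as CPM per kilobase of exon, counted over all annotated exons of the gene. This adjusts for the annotated length and not for which transcripts were expressed, which was not tested. Where a shorter transcript is expressed, the level of a member is understated, and ranks, sums and shares carry that limit. In FaDu controls the hemidesmosomal beta subunit ITGB4 stood first at 97.8 ± 13.8 (SD, n = 3), followed by the laminin chain LAMB3 at 75.1 ± 6.01 and ITGB1, the beta subunit shared by most integrins of epithelial cells, at 68.5 ± 6.89. The next places were held by the laminin-binding alpha subunit ITGA3 at 48.8 ± 7.87, LAMA5 at 39.2 ± 5.01 and the laminin-binding alpha subunit ITGA6 at 22.9 ± 3.56. LAMB3 and ITGB1 did not differ beyond their spread, whereas ITGA6 lay apart from LAMA5 above it and from LAMC1 under it.

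In SAS controls ITGA3 stood first at 160 ± 2.36 CPM per kilobase, followed by LAMB3 at 139 ± 12.9, ITGB4 at 110 ± 6.53 and ITGB1 at 64.8 ± 0.424. LAMC1 at 56.1 ± 3.11 and LAMB1 at 55.1 ± 3.06, chains of widely expressed basement membrane laminins, came next and did not differ beyond their spread. ITGA6 at 48.9 ± 2.66, LAMA5 at 41.4 ± 1.68 and ITGA2 at 36.7 ± 2.06 followed. Both lines thus expressed the subunits of the hemidesmosomal and the laminin-binding integrins and the LAMB3 chain. LAMA3 stood far under LAMB3 in both, at 3.0 ± 1.21 CPM per kilobase in FaDu controls and 16.0 ± 3.72 in SAS controls. The annotated exons of LAMA3 and LAMB3 cover 14678 and 4688 bases, so the size of this gap depends on the transcripts expressed. LAMB1 and ITGA2 were among the 9 highest members in SAS and not in FaDu.

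**Figure D1:**
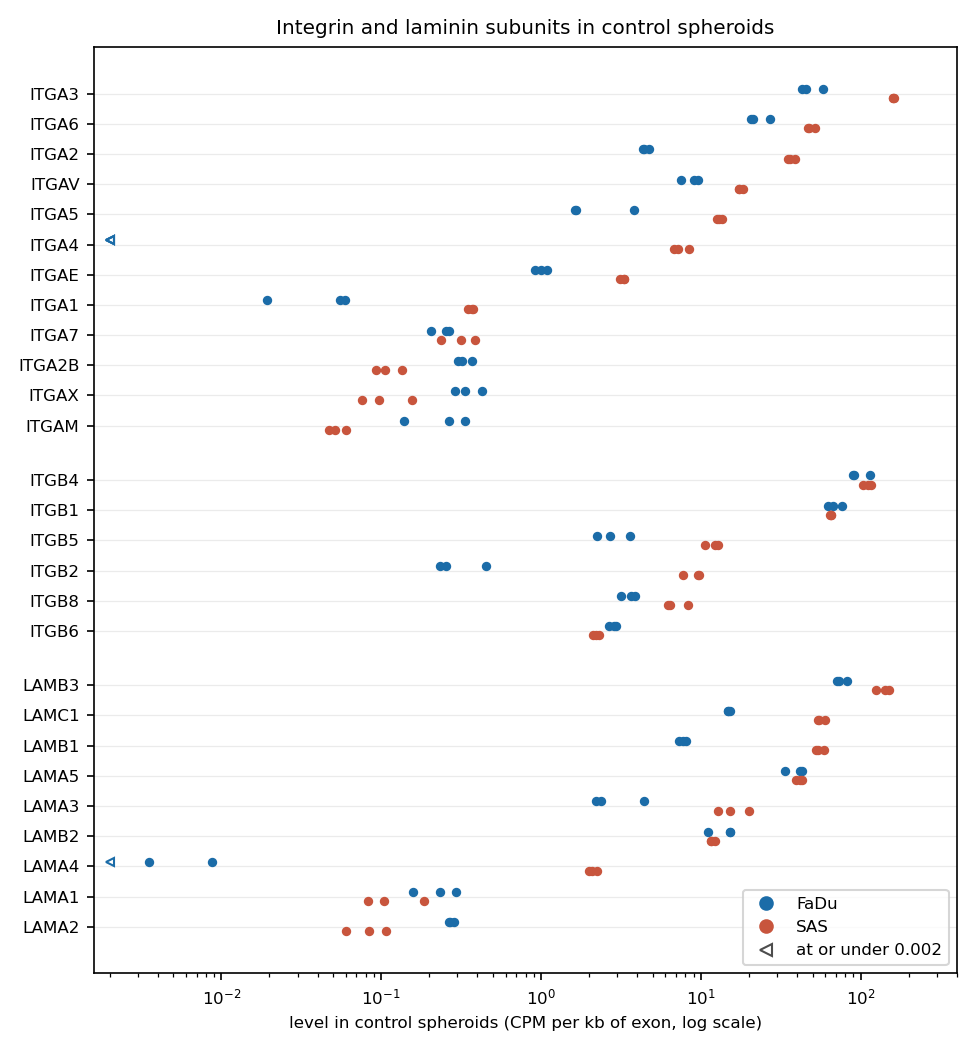
Level of 27 members in the control spheroids, in CPM per kilobase of exon on a log axis, 1 point per library, with FaDu and SAS in different colors and members grouped as integrin alpha subunits, integrin beta subunits and laminin chains. ITGB1, ITGB4 and LAMA5 lie together in both lines, while ITGA4 and LAMA4 are far higher in SAS.

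At a mean of at least 1 CPM, 24 members were detected in FaDu controls, 23 in SAS controls and 20 in both. In all 8 groups 9 members stayed under 1 CPM: the alpha subunits ITGA8, ITGA9, ITGA10, ITGA11 and ITGAL, the beta subunits ITGB3 and ITGB7, and the laminin chains LAMB4 and LAMC3. ITGA8 and ITGAL made up 0% of the alpha subunit sum in the controls of both lines. ITGAL is the alpha subunit of the main integrin of lymphocytes, and ITGB3 is the beta subunit of the platelet fibrinogen receptor.

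Sums over a class, again in CPM per kilobase, placed the larger difference between the lines on the alpha side. The integrin alpha subunits summed to 89.6 ± 11.5 in FaDu controls (103, 83.7 and 82.3 in replicates 1 to 3) and to 288 ± 3.66 in SAS controls (287, 284 and 292). The beta subunits summed to 176 ± 20.8 in FaDu (200, 163 and 165) and to 205 ± 5.0 in SAS (200, 206 and 210). The alpha sums of the lines lay far apart, whereas FaDu replicate 1 and SAS replicate 1 met at the same beta sum. The other FaDu libraries, at 163 and 165, lay under every SAS beta sum. ITGA3 and ITGA6, which bind laminin, made up 54.3% and 25.5% of the alpha sum in FaDu and 55.5% and 17.0% in SAS, and ITGB4 and ITGB1 made up 55.5% and 39.0% of the beta sum in FaDu and 53.7% and 31.6% in SAS.

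For the laminin chains, summed in the same way, the larger difference between the lines lay on the beta side. The shares of LAMA3 and LAMA5 carry the limit of annotated exon length given above. The alpha chains summed to 42.7 ± 3.88 CPM per kilobase in FaDu controls and 59.7 ± 5.38 in SAS controls, and the beta chains to 96.7 ± 3.83 and 205 ± 9.51. LAMA5, an alpha chain of most adult basement membranes, made up 91.6% ± 3.6 of the alpha chains in FaDu and 69.5% ± 3.64 in SAS, while LAMA3, the alpha chain of hemidesmosomal laminin, made up 7.23% ± 3.66 and 26.6% ± 3.75. LAMB3 led the beta chains with 77.6% ± 3.2 in FaDu and 67.4% ± 3.21 in SAS, and LAMB1 held 7.96% ± 0.39 in FaDu and 26.9% ± 2.77 in SAS.

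The comparison of control spheroids of FaDu with those of SAS asks how the lines differ before any treatment. Most tested members were higher in SAS, among them the collagen receptor subunits ITGA1 and ITGA2, the laminin-binding ITGA3, the fibronectin-binding ITGA5, the beta subunits ITGB2 and ITGB5 and the laminin chains LAMA3, LAMB1 and LAMC1, while ITGB1, ITGB4 and LAMA5 were not called different. A gene is called altered here at an adjusted p under 0.05 in the quasi-likelihood test of edgeR, Benjamini-Hochberg adjusted over all tested genes, with an absolute log2 fold change above 1. Of 27 members that passed the filter on low counts, 17 were altered, where 38.1% of all tested genes were: 13 were higher in SAS (16.9% of all tested genes) and 4 in FaDu (21.2%). At an adjusted p under 0.05 alone, 23 were called (75.0% of all), 16 higher in SAS (36.4%) and 7 higher in FaDu (38.6%). The median log2 fold change of FaDu over SAS was -0.99 over the tested members and 0.03 over all tested genes, and it was the same with members near 0 set to the ratio of their counts. DESeq2 also altered 17. Members such as ITGA4 and LAMA4 passed the filter through SAS and had to differ, so these counts describe the members that could be tested and do not stand for the 36. In bulk RNA from whole spheroids, fewer cells expressing a gene and less RNA per cell cannot be told apart.

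Among the collagen receptors, ITGA2 was measured at 37.4, 34.4 and 35.1 CPM in the FaDu control libraries and at 286, 276 and 308 CPM in those of SAS. All SAS libraries lay far above all FaDu libraries, a 7.99-fold difference (SE 0.07 on the log2 scale, adjusted p = 1.53e-10 by the same test). ITGA1, whose product pairs with ITGB1 as another collagen receptor, was low in both lines, with 1.1, 0.357 and 1.03 CPM in FaDu and 6.84, 6.96 and 6.51 CPM in SAS. The groups did not overlap (log2 fold change -2.98 ± 0.29, SE, adjusted p = 4.11e-06). The exons of ITGA1 share 475 bases, 2.56% of its exon length, with PELO on the same strand, which had 10269 counts over all libraries against 1802 for ITGA1 and was itself lower in FaDu (log2 fold change -1.90 ± 0.12), so the values of ITGA1 carry that doubt.

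The 250 bases upstream of the ITGA2 start, taken from RefSeq (GRCh38.p14, chr5:52989102-52989351, plus strand), are shown because ITGA2 had both the most precisely measured line difference among the integrins and a fall after heat in both lines. The sequence is written 5′ to 3′, and the capitals mark the letters GGGCGG, the core of a GC box, searched on both strands.

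ITGA2 upstream: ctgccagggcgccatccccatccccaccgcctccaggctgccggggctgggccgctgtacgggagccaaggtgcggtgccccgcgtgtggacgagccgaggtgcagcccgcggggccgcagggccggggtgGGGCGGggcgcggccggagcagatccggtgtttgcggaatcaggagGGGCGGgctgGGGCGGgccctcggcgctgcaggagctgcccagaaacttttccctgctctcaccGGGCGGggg

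The window of ITGA2 held 4 matches to GGGCGG, the first letters of which lie 119, 73, 63 and 9 bases before the start. Of all 35116 windows of this length, 42.6% held at least 1 such match, and 17 of the 33 windows of members did. Some members have more than 1 window, and 14 of the 26 members with a window had a match in any of theirs. A match is a description of the letters, not a site.

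Of the laminin-binding alpha subunits, ITGA3 was measured at 566, 448 and 421 CPM in FaDu controls and at 1590, 1560 and 1550 CPM in SAS controls. ITGA6 was measured at 176, 134 and 139 CPM in FaDu and at 307, 312 and 340 CPM in SAS. Both were higher in every SAS library than in any FaDu library, by 3.21-fold for ITGA3 (log2 fold change -1.68 ± 0.10, adjusted p = 7.12e-08) and by 2.1-fold for ITGA6 (-1.07 ± 0.10, adjusted p = 2.25e-06). With FaDu control replicate 2 left out, ITGA6 was at -0.99, short of the fold threshold. ITGA7, known as the laminin receptor subunit of muscle, was near 2 CPM in both lines, with overlapping groups (-0.32 ± 0.27, adjusted p = 0.294).

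The fibronectin receptor subunit ITGA5 was measured at 29.1, 12.5 and 12.3 CPM in FaDu controls and at 95.3, 103 and 98.7 CPM in SAS controls. SAS was 5.45-fold higher (-2.45 ± 0.26, adjusted p = 7.09e-06), and FaDu replicate 1 stood well above the other FaDu libraries. Without FaDu control replicate 1 the log2 fold change of ITGA5 was -2.96. ITGAV, which binds vitronectin and latent transforming growth factor beta with several beta partners, was 1.98-fold higher in SAS (-0.99 ± 0.09, adjusted p = 2.74e-06), just short of the fold asked of an altered gene, and reached -1.01, -1.05, -1.01 and -1.01 without FaDu control replicate 2 or 3 or SAS control replicate 2 or 3.

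ITGA4, the alpha subunit of a receptor for fibronectin and for an adhesion molecule of activated endothelium, was the clearest case of a member present in a single line. SAS controls held 53.8, 56.9 and 66.9 CPM, 3145 counts in all, and FaDu controls held 0 counts in each of 3 libraries. Against a floor of 3 counts over the group, ITGA4 was at least 1240-fold higher in SAS. Over the other conditions FaDu held 5 counts after RT, 1 after HT and 3 after HT + RT, and the ratio of SAS to FaDu was 2730 (95% counting interval 490 to 108000) after HT and 1060 (364 to 5160) after HT + RT. Such intervals and floors cover counting error only.

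Among subunits named for leukocytes, ITGB2, the common beta subunit of leukocyte integrins, was measured at 3.1, 1.58 and 1.73 CPM in FaDu controls and at 66.1, 65.3 and 52.6 CPM in SAS controls. It had the largest fitted difference of the members with more than 3 counts in each group, 28.5-fold (-4.83 ± 0.19, adjusted p = 4.09e-09), and -5.16 without FaDu control replicate 1. Its alpha partners went the other way or were absent: ITGAM was measured at 0.789, 1.89 and 1.52 CPM in FaDu and 0.267, 0.342 and 0.293 CPM in SAS (2.23 ± 0.43, adjusted p = 0.000691). ITGAX was measured at 2.05, 2.35 and 3.04 CPM in FaDu and 0.534, 0.684 and 1.11 CPM in SAS (1.71 ± 0.32, adjusted p = 0.00056). For both, every FaDu library lay above every SAS library, at low levels.

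ITGAE, the alpha subunit of the E-cadherin receptor of intraepithelial lymphocytes, was measured at 7.31, 6.68 and 6.08 CPM in FaDu controls and at 22.0, 22.1 and 20.8 CPM in SAS controls (-1.67 ± 0.11, adjusted p = 2.32e-07). The groups did not overlap. The exons of ITGAE share 427 bases, 6.41% of their length, with HASPIN on the opposite strand, which was also lower in FaDu (-1.16 ± 0.11), and the strand on which reads were counted is not stated. ITGA2B, the alpha subunit of the platelet fibrinogen receptor, was measured at 1.79, 1.68 and 2.06 CPM in FaDu and at 0.748, 0.513 and 0.586 CPM in SAS (1.60 ± 0.29, adjusted p = 0.00047), so FaDu was higher throughout.

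Of the beta subunits other than ITGB2, ITGB1 and ITGB4 were not called different between the controls, and ITGB5, ITGB6 and ITGB8, which pair with ITGAV, were. ITGB1 was measured at 456, 374 and 404 CPM in FaDu controls and at 392, 390 and 387 CPM in SAS controls, with overlapping groups (0.11 ± 0.07, adjusted p = 0.208). ITGB4 likewise overlapped, at 769, 614 and 601 CPM in FaDu and 700, 749 and 788 CPM in SAS (-0.15 ± 0.09, adjusted p = 0.173). That overlap of ITGB4 came from FaDu replicate 1 alone, and the other FaDu libraries lay under every SAS library. Neither the shared nor the hemidesmosomal beta subunit was thus called different between the controls, while their partners ITGA2, ITGA3, ITGA5 and ITGA6 were higher in SAS. ITGB5, a partner of ITGAV in vitronectin binding, was measured at 23.2, 17.3 and 14.4 CPM in FaDu and at 82.3, 79.4 and 68.4 CPM in SAS, without overlap (-2.05 ± 0.15, adjusted p = 3.2e-07, and -2.24 without FaDu control replicate 1). ITGB8 was 1.91-fold higher in SAS (-0.94 ± 0.12, past the fold threshold without SAS control replicate 1, narrowly, or 2, at -1.03), and ITGB6, a partner of ITGAV in epithelium, was 1.29-fold higher in FaDu (0.37 ± 0.11, adjusted p = 0.0122).

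Of the laminin alpha chains, LAMA3 was measured at 64.4, 32.5 and 35.1 CPM in FaDu controls and at 188, 222 and 295 CPM in SAS controls. Every SAS library lay above the FaDu libraries, of which replicate 1 was the highest (5.27-fold, -2.40 ± 0.24, adjusted p = 4.74e-06), and without FaDu control replicate 1 the log2 fold change of LAMA3 was -2.76. LAMA5 was measured at 479, 611 and 592 CPM in FaDu and at 564, 599 and 611 CPM in SAS, with overlapping groups (-0.05 ± 0.09, adjusted p = 0.649). LAMA4, a chain known from vessels and muscle, had 3 counts in FaDu controls and 1304 in SAS controls, where it was measured at 24.2, 23.3 and 26.0 CPM, a ratio of 513 (95% counting interval 176 to 2490). LAMA2, the alpha chain of muscle basement membrane, was low and higher in FaDu, at 2.79, 2.75 and 2.96 CPM against 1.12, 0.627 and 0.879 CPM (1.71 ± 0.27, adjusted p = 0.000151).

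Of the other laminin chains, LAMB1 was measured at 62.6, 65.6 and 59.6 CPM in FaDu controls and at 441, 428 and 476 CPM in SAS controls. LAMC1, the gamma chain that most laminins share, was measured at 128, 124 and 124 CPM in FaDu and at 462, 452 and 501 CPM in SAS. These chains, which assemble together, were both higher in every SAS library, 7.03-fold for LAMB1 (-2.81 ± 0.07, adjusted p = 2.24e-10) and 3.68-fold for LAMC1 (-1.88 ± 0.06, adjusted p = 1.55e-09). LAMB3 was 1.81-fold higher in SAS (-0.86 ± 0.08, adjusted p = 3.35e-06), with 384, 341 and 331 CPM in FaDu and 661, 703 and 584 CPM in SAS. LAMB2 was measured at 76.5, 105 and 104 CPM in FaDu and at 79.3, 79.1 and 83.6 CPM in SAS, with overlapping groups and a call at the threshold (0.27 ± 0.11, adjusted p = 0.0477). Leaving out FaDu control replicate 2 or 3, or SAS control replicate 1, 2 or 3, took the adjusted p of LAMB2 to 0.159, 0.162, 0.122, 0.139 or 0.0696, and with all 8 groups in 1 fit it was 0.0653.

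The upstream windows of LAMA3 and LAMB3 are shown together because their products join in the same trimer and because they were the members with a window that held the letters TGANTCA, the core bound by AP-1 factors. Both come from RefSeq (GRCh38.p14), chr18:23872770-23873019 on the plus strand for LAMA3 and chr1:209651375-209651624 on the minus strand for LAMB3, written 5′ to 3′ with the matches, searched on both strands, in capitals.

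LAMA3 upstream: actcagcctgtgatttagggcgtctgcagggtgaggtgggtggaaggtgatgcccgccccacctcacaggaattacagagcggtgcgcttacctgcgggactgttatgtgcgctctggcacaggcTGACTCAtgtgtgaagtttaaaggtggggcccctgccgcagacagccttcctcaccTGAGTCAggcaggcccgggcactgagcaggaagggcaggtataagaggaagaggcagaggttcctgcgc

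LAMB3 upstream: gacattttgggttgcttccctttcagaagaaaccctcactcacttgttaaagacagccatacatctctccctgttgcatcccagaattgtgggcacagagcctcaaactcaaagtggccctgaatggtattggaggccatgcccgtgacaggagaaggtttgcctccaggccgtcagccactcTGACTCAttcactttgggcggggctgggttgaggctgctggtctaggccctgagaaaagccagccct

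The LAMA3 window held 2 matches, 125 and 69 bases before the start. The LAMB3 window shown held 1, 67 bases before it, and is 1 of 3 windows of LAMB3, of which the other 2 held 0. Of all windows of this length 6.57% held TGANTCA, and of the 33 windows of members 2 did. Of the 36 members, 26 had a window in the RefSeq table and 10 had none.

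Across the 4 conditions the line difference recurred in most tested members. Each condition was measured in its own libraries, but FaDu libraries of the same replicate resembled each other across conditions. Their deviations from the group mean correlated at 0.185 to 0.524 between RT and control. The 4 comparisons are thus not independent of each other. In all 4 comparisons of FaDu with SAS the same 12 members were altered and higher in SAS: ITGA1, ITGA2, ITGA3, ITGA4, ITGA5, ITGAE, ITGB2, ITGB5, LAMA3, LAMA4, LAMB1 and LAMC1. In all 4 the same 3 were altered and higher in FaDu: ITGAM, ITGA2B and LAMA2. No member was called in opposite directions in different conditions at an adjusted p under 0.05 (0 of 27 tested in all 4), and 8 members were tested in none. After RT, with a dose that differs between the lines, 18 of 27 tested members were altered (38.7% of all tested genes), 14 higher in SAS (17.0%) and 4 in FaDu (21.7%). After HT it was 17 of 27 (40.1%), 14 higher in SAS (18.2%) and 3 in FaDu (21.9%). After HT + RT, again with unequal doses, it was 18 of 28 (40.4%), 14 higher in SAS (18.3%) and 4 in FaDu (22.1%). Most tested members thus differed between the lines whichever treatment both had received, and mostly toward SAS. As in controls, ITGA4 and LAMA4 passed the filter through SAS and had to differ. These counts thus describe the members that could be tested and not the whole list. At an adjusted p under 0.05 alone, 22 members were called after RT (74.6% of all tested genes), 6 of them higher in FaDu (38.6%). By the same rule 24 were called after HT (73.2%), 7 of them higher in FaDu (37.2%). After HT + RT 24 were called (75.2%), 16 higher in SAS (36.8%) and 8 in FaDu (38.4%). The median log2 fold change of the tested members was -1.04, -1.07 and -1.04 in these conditions, against 0.03, 0.02 and 0.02 over all tested genes.

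A few members crossed the fold threshold between conditions. ITGA6 was altered in controls and after RT, with log2 fold changes of -1.07 and -1.09, and not after HT or HT + RT, at -0.87 and -0.97. ITGB8, whose integrin activates latent transforming growth factor beta, moved the other way, with -0.94, -0.85, -1.24 and -1.25 in control, RT, HT and HT + RT. LAMB3 was altered in each treated condition, at -1.04 after RT, -1.07 after HT and -1.10 after HT + RT. Single libraries decided some of these: after RT, ITGA6 was at -0.96 without FaDu RT replicate 3, and LAMB3 at -0.96 and -0.99 without FaDu RT or SAS RT replicate 2. After HT + RT, ITGA6 was at -1.09 and -1.02 without FaDu HT + RT replicate 1 or SAS HT + RT replicate 2. LAMA2 was at 0.96 after RT without SAS RT replicate 3, and after HT + RT at 0.90 and 0.80 without SAS HT + RT replicate 1 or 3, under the fold threshold, which it also missed narrowly without FaDu HT + RT replicate 1. ITGB1 was called higher in FaDu after HT (0.19 ± 0.06, adjusted p = 0.0198) and HT + RT (0.22 ± 0.07, adjusted p = 0.0114), without overlap. The call after HT was lost without SAS HT replicate 1, 2 or 3 (adjusted p = 0.106, 0.0505 and 0.0719), and that after HT + RT without SAS HT + RT replicate 3 (0.0581). The former was also lost with all 8 groups in 1 fit (0.0715) and with no filter for low counts (0.144). LAMA5 was not called between the lines in control or RT (-0.05 and -0.04) and was higher in FaDu after HT (0.55 ± 0.11, adjusted p = 0.00115) and HT + RT (0.49 ± 0.08, adjusted p = 0.000192). The change with HT and with HT + RT, not with RT, was itself tested as an interaction, and that of LAMA5 is given with the heat results.

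**Figure D2:**
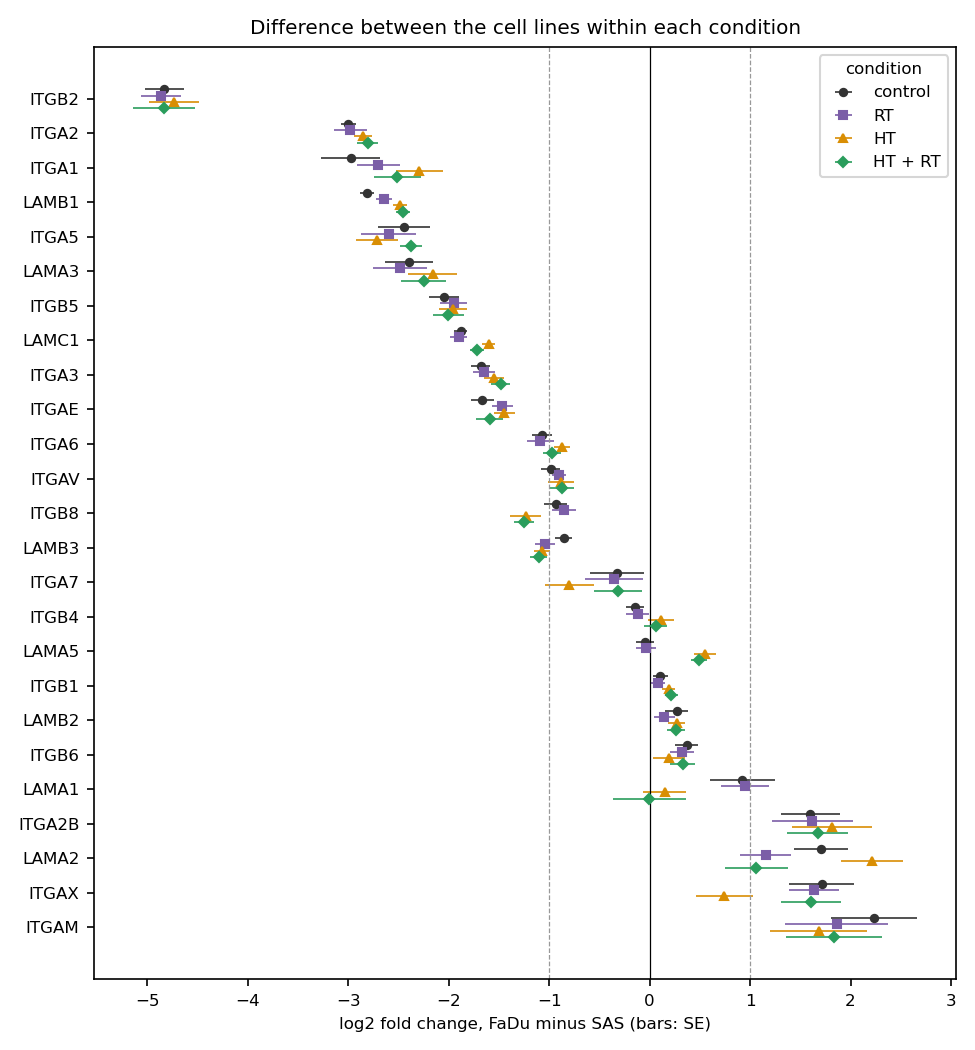
Log2 fold change of FaDu over SAS for 25 members in control, RT, HT and HT + RT spheroids, with bars of 1 SE; ITGA4 and LAMA4, near 0 counts in FaDu, are left out. Points of the same member lie close together in the 4 conditions for most members, and those of LAMA1, LAMA2, LAMA5 and ITGAX are among those spread most, with ITGA1.

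ITGAX was altered in 3 of the 4 conditions and had its smallest line difference after HT (0.74 ± 0.29, adjusted p = 0.0381). Without FaDu HT replicate 1 or 2, or SAS HT replicate 2 or 3, that adjusted p was 0.115, 0.0749, 0.0974 or 0.134, and it was 0.115 in DESeq2, 0.0763 with no filter for low counts and 0.0505 with the replicate as a block. LAMA1, the alpha chain of early embryonic basement membranes, was higher in FaDu controls, with overlapping groups (0.92 ± 0.33, adjusted p = 0.0243), and after RT (0.94 ± 0.24, adjusted p = 0.00465) but not after HT (0.15 ± 0.21, adjusted p = 0.54). The adjusted p of LAMA1 in controls was 0.103 or 0.0578 without FaDu control replicate 2 or 3, and 0.086 or 0.0988 without SAS control replicate 1 or 2. The fold threshold was passed without FaDu control replicate 1 (1.13) or SAS control replicate 3 (1.30), and after RT without FaDu RT replicate 1 (1.09) or SAS RT replicate 2 (1.09).

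HT against control asks what heat alone did 0.5 h after its end. That heat reached the cells is seen in HSPA6, HSPA1A and DNAJB1, chaperone genes of the heat shock response, which all rose in both lines (3 of 3 altered). DNAJB1 had log2 fold changes of 4.96 ± 0.13 in FaDu and 4.23 ± 0.08 in SAS. Of the tested members, 9 of 26 passed an adjusted p under 0.05 in SAS (23.6% of all tested genes) and 3 of 25 in FaDu (17.6%), most with changes under the fold threshold.

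In SAS, heat raised ITGA5, LAMB3, LAMB2 and LAMA1 and lowered ITGA2, ITGA6, ITGAV, ITGA3 and LAMC1. At an adjusted p under 0.05 these were 4 members up (12.2% of all tested genes) and 5 down (11.4%), together 9 of 26 against 23.6% of all tested genes. Only LAMA1 was altered with the fold threshold, 1 of 26 against 6.03% of all tested genes (5.31% upward), with 0 members altered downward (0.713%). The median log2 fold change was -0.03 over the members and 0.00 over all tested genes.

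ITGA5 was measured at 95.3, 103 and 98.7 CPM in SAS controls and at 186, 155 and 154 CPM after HT. Every heated library lay above every control library, a 1.67-fold rise (log2 fold change 0.74 ± 0.08, adjusted p = 2.73e-05). ITGA2 was measured at 286, 276 and 308 CPM in controls and at 204, 194 and 223 CPM after HT. It fell without overlap, 1.4-fold (-0.48 ± 0.07, adjusted p = 0.000317), so the subunits that carry fibronectin and collagen binding on the shared ITGB1 moved in opposite directions, while ITGB1 itself was at -0.07 ± 0.05 (adjusted p = 0.344).

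ITGA6 was measured at 307, 312 and 340 CPM in SAS controls and at 238, 246 and 264 CPM after HT, and it fell without overlap (-0.35 ± 0.06, adjusted p = 0.00174). Its partner ITGB4 had a log2 fold change of -0.04 ± 0.07 (adjusted p = 0.741). LAMB3 was measured at 661, 703 and 584 CPM in controls and at 820, 884 and 750 CPM after HT, and rose without overlap (0.34 ± 0.08, adjusted p = 0.00673), while LAMA3, its partner in the trimer, was at 0.01 ± 0.15. ITGAV fell (-0.28 ± 0.07, adjusted p = 0.00911).

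LAMA1 was measured at 1.66, 1.31 and 2.93 CPM in SAS controls and at 4.57, 3.37 and 4.06 CPM after HT, a 2.04-fold rise at a low level with SAS control replicate 3 close to the heated libraries (1.03 ± 0.29, adjusted p = 0.0216). Without SAS control replicate 1 or 2, or SAS HT replicate 1 or 3, the adjusted p of LAMA1 was 0.0806, 0.0732, 0.0673 or 0.0509. LAMB2, ITGA3 and LAMC1 had log2 fold changes of 0.26, -0.15 and -0.18. The call of LAMB2 was lost without SAS control replicate 1 or 2 or SAS HT replicate 1 (adjusted p = 0.101, 0.091 and 0.121). That of ITGA3 was lost without SAS control replicate 1, 2 or 3 or SAS HT replicate 1 or 2 (adjusted p from 0.0543 to 0.103), and that of LAMC1 without SAS control replicate 1 or 3 or SAS HT replicate 1, 2 or 3 (from 0.0618 to 0.143). With all 8 groups in 1 fit the calls of ITGAV, LAMB2, ITGA3 and LAMC1 were lost (adjusted p = 0.116, 0.132, 0.408 and 0.0505), and with at least 10 counts asked in every library those of ITGA3 and LAMC1 (0.0626 and 0.0667). With no filter for low counts ITGA4 and LAMA5 were also called as lower (0.015 and 0.0492).

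The window upstream of ITGA5 is shown because ITGA5 had the strongest call after heat in SAS (RefSeq, GRCh38.p14, chr12:54419267-54419516, minus strand, written 5′ to 3′). Capitals mark a match to CATTCC, the core bound by TEAD factors, searched on both strands and here read as its reverse complement, 82 bases before the start.

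ITGA5 upstream: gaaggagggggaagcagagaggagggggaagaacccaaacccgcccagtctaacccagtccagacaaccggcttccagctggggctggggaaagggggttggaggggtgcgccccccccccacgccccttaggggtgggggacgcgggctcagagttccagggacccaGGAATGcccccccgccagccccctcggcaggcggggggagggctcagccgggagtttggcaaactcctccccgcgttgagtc

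Of all windows 11.9% held CATTCC, and 4 of the 33 windows of members did, each of another member. The letters GAANNTTC and TTCNNGAA, the paired units bound by heat shock factors, were found in 5.78% and 6.62% of all windows, and of the members' windows only that of LAMA4 held either.

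In FaDu, heat lowered ITGA2 and raised LAMB1 and LAMA5 at an adjusted p under 0.05: 2 members up (7.95% of all tested genes) and 1 down (9.69%), together 3 of 25 against 17.6% of all tested genes. The edgeR test altered 0 of 25 members, against 4.97% of all tested genes (4.29% upward and 0.674% downward), with 5 at an unadjusted p under 0.05, and DESeq2 also altered 0. The median log2 fold change was 0.11 over the members and 0.01 over all tested genes.

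LAMA5 was measured at 479, 611 and 592 CPM in FaDu controls and at 685, 722 and 834 CPM after HT. The groups did not overlap, and replicate 1 was the lowest in each (0.43 ± 0.11, adjusted p = 0.0321). Without FaDu control replicate 1, 2 or 3, or FaDu HT replicate 2 or 3, the adjusted p of LAMA5 was 0.058, 0.0528, 0.0691, 0.0696 or 0.107. With replicate 1 left out of both FaDu groups the log2 fold change of LAMA5 was 0.40 (adjusted p = 4.9e-05).

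LAMB1 was measured at 62.6, 65.6 and 59.6 CPM in FaDu controls and at 76.4, 71.3 and 77.9 CPM after HT, and rose without overlap (0.29 ± 0.07, adjusted p = 0.0216). The adjusted p of LAMB1 was 0.0541 or 0.101 without FaDu control replicate 1 or 3 and 0.0807 without FaDu HT replicate 3. ITGA2 was measured at 37.4, 34.4 and 35.1 CPM in controls and at 29.8, 25.4 and 27.9 CPM after HT, and fell without overlap (-0.35 ± 0.08, adjusted p = 0.0241). Without FaDu control replicate 1, 2 or 3, or FaDu HT replicate 2 or 3, the adjusted p of ITGA2 was 0.0694, 0.0604, 0.0856, 0.0918 or 0.0706. With all 8 groups in 1 fit it was 0.0511, while ITGAE and ITGB6 passed in that fit (0.0204 and 0.0395). With no filter for low counts ITGA5 and ITGB8 passed in addition (0.00614 and 0.0155).

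ITGA5 in FaDu was measured at 29.1, 12.5 and 12.3 CPM in controls and at 27.7, 14.9 and 29.8 CPM after HT, with overlapping groups and replicate 1 high in both (0.45 ± 0.36, adjusted p = 0.443). Libraries of the same replicate resembled each other in FaDu, and with the replicate as a block the log2 fold change of ITGA5 was 0.50 ± 0.18 (adjusted p = 0.0389). With replicate 1 left out it was 0.87 (adjusted p = 0.00108). With that block 12 of 25 members passed an adjusted p under 0.05 in FaDu, against 32.7% of all tested genes in the same fit, among them ITGB4 (0.20 ± 0.04, adjusted p = 0.00262), LAMB2 (0.25 ± 0.06, adjusted p = 0.00581), LAMA3 (0.23 ± 0.06, adjusted p = 0.0124) and ITGB8 (-0.30 ± 0.08, adjusted p = 0.00804). The others were ITGA2, LAMA5 and LAMB1, called without the block too, and ITGA6, ITGAE, ITGAV and ITGB6.

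**Figure D3:**
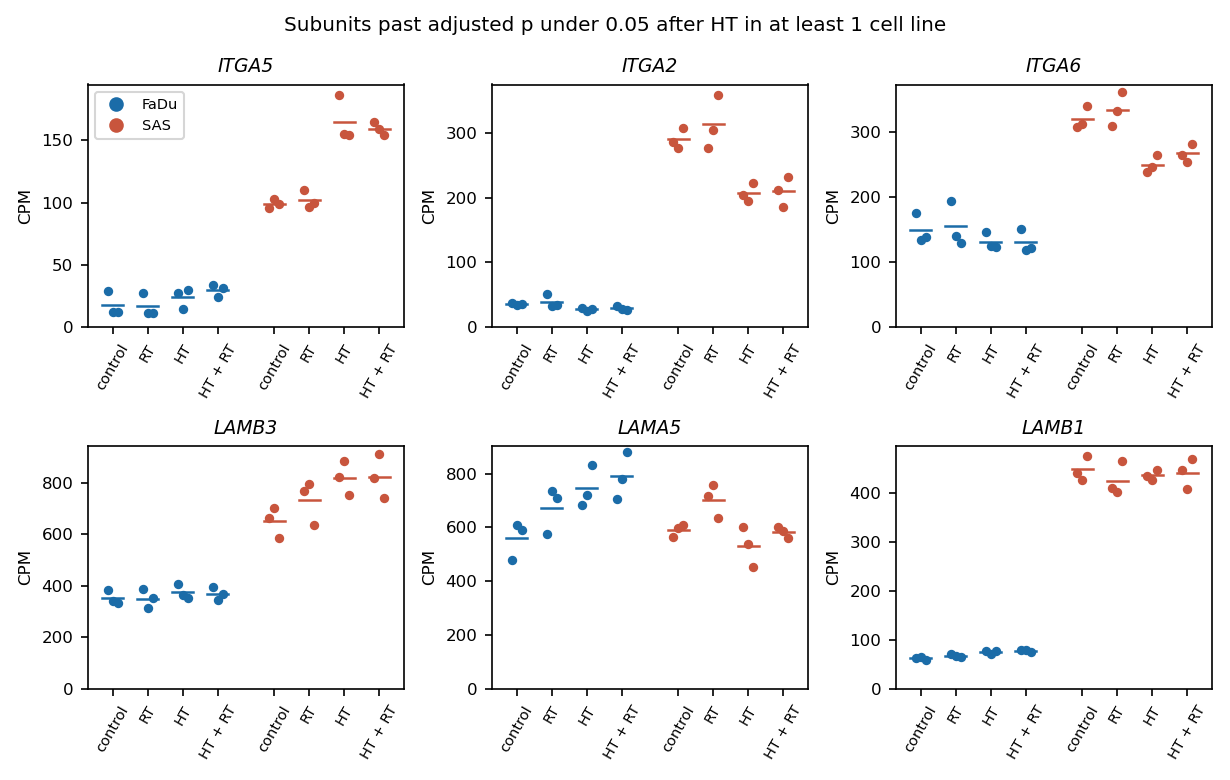
CPM of ITGA5, ITGA2, ITGA6, LAMB3, LAMA5 and LAMB1 in each library of the 8 groups, with the group mean as a line. In SAS the heated groups of ITGA5 and LAMB3 lie above the control group and those of ITGA2 and ITGA6 under it, while in FaDu the heated groups of LAMA5 and LAMB1 lie above the control group.

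HT + RT against control asks what the combination did, and it shares its control libraries with the HT comparison, so the values stand side by side and do not repeat each other. In SAS, ITGA5 was at 165, 159 and 154 CPM after HT + RT (0.69 ± 0.06, adjusted p = 5.39e-06) and ITGA2 at 212, 186 and 232 CPM (-0.46 ± 0.08, adjusted p = 0.00121). Both groups lay apart from the controls, in the direction seen after HT. LAMB3 rose (0.35 ± 0.08, adjusted p = 0.00746), ITGA6 fell (-0.26 ± 0.06, adjusted p = 0.00915) and ITGA3 fell (-0.19 ± 0.04, adjusted p = 0.00489). LAMB2 rose (0.29 ± 0.07, adjusted p = 0.0111, and 0.0514 without SAS HT + RT replicate 1). In all, 8 of 26 members passed an adjusted p under 0.05 (25.1% of all tested genes), 4 up (13.6%) and 4 down (11.5%). With all 8 groups in 1 fit 4 passed: the calls of ITGA5, ITGA6, ITGA3, LAMB2 and ITGA4 were lost (adjusted p = 0.0664, 0.141, 0.258, 0.0903 and 0.123), those of ITGA2, LAMB3 and LAMA1 remained, and LAMA2 passed (0.0363). The log2 fold change of ITGA5 was 0.69 in that fit too.

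LAMA1 was the altered member in SAS after HT + RT, 1 of 26 against 6.36% of all tested genes (5.76% upward; 0 members downward, 0.596%), at 3.64, 3.14 and 5.65 CPM (1.09 ± 0.32, adjusted p = 0.0263). Without SAS control replicate 1 or 2, or SAS HT + RT replicate 3, the adjusted p of LAMA1 was 0.0918, 0.0839 or 0.116. Leaving out SAS control replicate 2 also made ITGA10 altered (4.06, adjusted p = 0.0105), a gene with 1, 4 and 0 counts in the SAS controls. ITGA4 fell (-0.26 ± 0.09, adjusted p = 0.0486), a call lost without SAS control replicate 2 or 3 or SAS HT + RT replicate 1, 2 or 3 (adjusted p = 0.0605, 0.143, 0.137, 0.119 and 0.0636), and with at least 10 counts asked in every library (0.0608). With no filter for low counts ITGAV, LAMC1, LAMA2 and ITGA10 passed in addition. With the replicate as a block, ITGAV (-0.18 ± 0.05, adjusted p = 0.00931) and LAMC1 (-0.16 ± 0.04, adjusted p = 0.00595) also passed, among 10 members, against 35.5% of all tested genes in that fit.

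In FaDu after HT + RT, LAMA5 was at 707, 779 and 882 CPM (0.52 ± 0.11, adjusted p = 0.0116) and LAMB1 at 78.9, 78.9 and 75.3 CPM (0.34 ± 0.06, adjusted p = 0.00511), each above all control libraries. Without FaDu HT + RT replicate 3 the adjusted p of LAMA5 was 0.0522. At an adjusted p under 0.05 these were 2 of 25 tested members (19.3% of all tested genes), 2 upward (9.52%) and 0 downward (9.78%). With no filter for low counts ITGA2, ITGA5 and LAMB2 passed in addition (0.0351, 9.15e-10 and 0.0118). The edgeR test altered 0 of 25, against 5.72% of all tested genes (5.08% upward and 0.642% downward), with 5 at an unadjusted p under 0.05, and DESeq2 also altered 0.

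ITGA5 in FaDu was at 33.4, 23.9 and 31.0 CPM after HT + RT, above control replicates 2 and 3 in every library, while its replicate 2 lay under control replicate 1 at 29.1 CPM (0.75 ± 0.30, adjusted p = 0.118). With the replicate as a block the log2 fold change of ITGA5 was 0.83 ± 0.13 (adjusted p = 1e-05). Without FaDu control replicate 1 it was 1.27 (adjusted p = 0.000635), and without replicate 1 in both groups 1.18 (adjusted p = 4.02e-10), either of which makes ITGA5 an altered gene. With the block 8 of 25 members passed an adjusted p under 0.05, against 32.9% of all tested genes in the same fit, adding ITGA2 (-0.28 ± 0.08), ITGA5, ITGA6 (-0.16 ± 0.05), ITGB4 (0.20 ± 0.05), ITGB8 (-0.22 ± 0.07) and LAMB2 (0.28 ± 0.06) to LAMA5 and LAMB1.

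HT + RT against HT asks what irradiation added to heat. The edgeR test altered 0 of 25 members in FaDu and 0 of 26 in SAS, against 0% of all tested genes in both, with 0 and 2 members at an unadjusted p under 0.05, and DESeq2 and the fit with the replicate as a block called 0 in both lines. Over all tested genes DESeq2 altered 2 in FaDu and 3 in SAS, and the block took 0.954% and 0.906% past an adjusted p under 0.05. Among the listed partner genes FERMT3, an adaptor described with the heat results, was altered in SAS by DESeq2 (1.05, adjusted p = 7.65e-06), the block (0.000526) and no filter for low counts (1.4e-09), and not by edgeR as reported (0.0561) or with all 8 groups in 1 fit (0.356). In SAS the members with the largest fitted values were LAMA2 (1.09 ± 0.42, adjusted p = 0.998) and ITGAX (-0.89 ± 0.33, adjusted p = 0.989), both near 1 CPM. ITGA5 was at 0.29 ± 0.24 in FaDu and -0.05 ± 0.07 in SAS.

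RT against control asks what irradiation alone did. The edgeR test altered 0 of 25 members in FaDu (0.00643% of all tested genes) and 0 of 26 in SAS (0.0272%), with 0 and 2 members at an unadjusted p under 0.05, and DESeq2 altered 0 in both. At an adjusted p under 0.05 alone edgeR called 0 members in FaDu (0.0322% of all tested genes, all upward) and 0 in SAS (0.0749%, all upward). LAMA5 was measured at 577, 735 and 708 CPM in FaDu after RT, and each library lay above the control of the same replicate, at 479, 611 and 592 CPM. With the replicate as a block LAMA5 passed in FaDu (0.26 ± 0.05, adjusted p = 0.000737, and 1.0 without the block) and in SAS (0.25 ± 0.05, adjusted p = 0.00523, and 0.426 without it). In SAS it was measured at 719, 759 and 634 CPM after RT and 564, 599 and 611 CPM in controls, without overlap. That block also called LAMB3 (0.17 ± 0.04, adjusted p = 0.0218) and ITGB8 (-0.24 ± 0.06, adjusted p = 0.0209) in SAS. In that fit 1 of 25 members passed in FaDu (2.01% of all tested genes) and 3 of 26 in SAS (1.96%). With no filter for low counts LAMA5 also passed in SAS (0.00322).

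Whether the lines differed in their response was tested as an interaction of line and treatment, taken as FaDu minus SAS. LAMA5 and LAMB1 passed after both HT and HT + RT, each responding more in FaDu: 2 of 28 tested members against 5.55% of all tested genes for HT (2.3% upward) and 2 of 28 against 7.27% for HT + RT (2.99% upward), where the irradiation dose differs between the lines. The interaction of LAMA5 was 0.61 ± 0.15 for HT (adjusted p = 0.0292) and 0.57 ± 0.13 for HT + RT (adjusted p = 0.0127), the response being 0.43 in FaDu and -0.15 in SAS for HT and 0.52 and -0.02 for HT + RT. The interaction of LAMB1 was 0.35 ± 0.09 (adjusted p = 0.0355) and 0.39 ± 0.09 (adjusted p = 0.0204), the response being 0.29 in FaDu and -0.04 in SAS for HT and 0.34 and -0.01 for HT + RT. Both interactions share the control libraries.

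These calls were near the threshold. For HT, the adjusted p of LAMA5 was 0.0632 or 0.0953 without FaDu HT replicate 2 or 3, 0.062, 0.0621 or 0.0902 without SAS control replicate 1, 2 or 3, and 0.0804 or 0.0914 without SAS HT replicate 2 or 3. For HT + RT, it was 0.059 without FaDu HT + RT replicate 3, 0.0517 without SAS control replicate 3 and 0.0554 without SAS HT + RT replicate 3. For LAMB1 and HT, leaving out any library but FaDu control replicate 2 and SAS control replicate 2 took the adjusted p to between 0.0604 and 0.147, and with no filter for low counts it was 0.12. For LAMB1 and HT + RT, the call was lost without FaDu control replicate 3, SAS control replicate 1 or 3, any FaDu HT + RT library, or SAS HT + RT replicate 1 or 2 (adjusted p from 0.0586 to 0.113). The exons of LAMA5 overlap ADRM1 on the opposite strand by 244 bases, 1.71% of their length, and those of LAMB1 overlap DLD by 70 bases, 0.86%, and the interaction of these neighbors for HT was -0.02 (adjusted p = 0.983) for ADRM1 and 0.13 (adjusted p = 0.486) for DLD.

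The edgeR test altered 0 of 28 members in the interaction for HT (2.74% of all tested genes), with 6 at an unadjusted p under 0.05, and 0 of 28 for HT + RT (3.4%), with 5, and DESeq2 altered 0 in each. Without FaDu control replicate 2 or FaDu HT replicate 3, LAMA4 became altered in the interaction for HT (adjusted p = 0.0476 and 0.0313), with 3 counts in the FaDu control group. ITGA5, which passed in SAS after HT and not in FaDu, had an interaction of -0.25 ± 0.37 (adjusted p = 0.824), so its response was not shown to differ. For HT + RT with FaDu replicate 1 left out, the interaction of ITGA5 was 0.53 (adjusted p = 0.0152). With the replicate as a block, ITGA3, ITGB4, ITGB8, LAMA1 and LAMB3 also passed for HT + RT, which makes 7 of 28 members, against 2576 of 17219 tested genes in that fit, with interactions of 0.23 for ITGA3 and ITGB4, -0.29 for ITGB8, -0.93 for LAMA1 and -0.22 for LAMB3. For HT the block added ITGB4 (0.27 ± 0.08, adjusted p = 0.0292, and 0.479 without the block) and LAMC1 (0.29 ± 0.08, adjusted p = 0.0148, and 0.0616 without it), which makes 4 of 28 members, against 1886 of 17219 tested genes. SAS libraries of the same replicate were not all correlated above 0.1 for HT. LAMC1 also passed in DESeq2 (adjusted p = 0.0333) and with at least 10 counts asked in every library (0.0474).

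**Figure D4:**
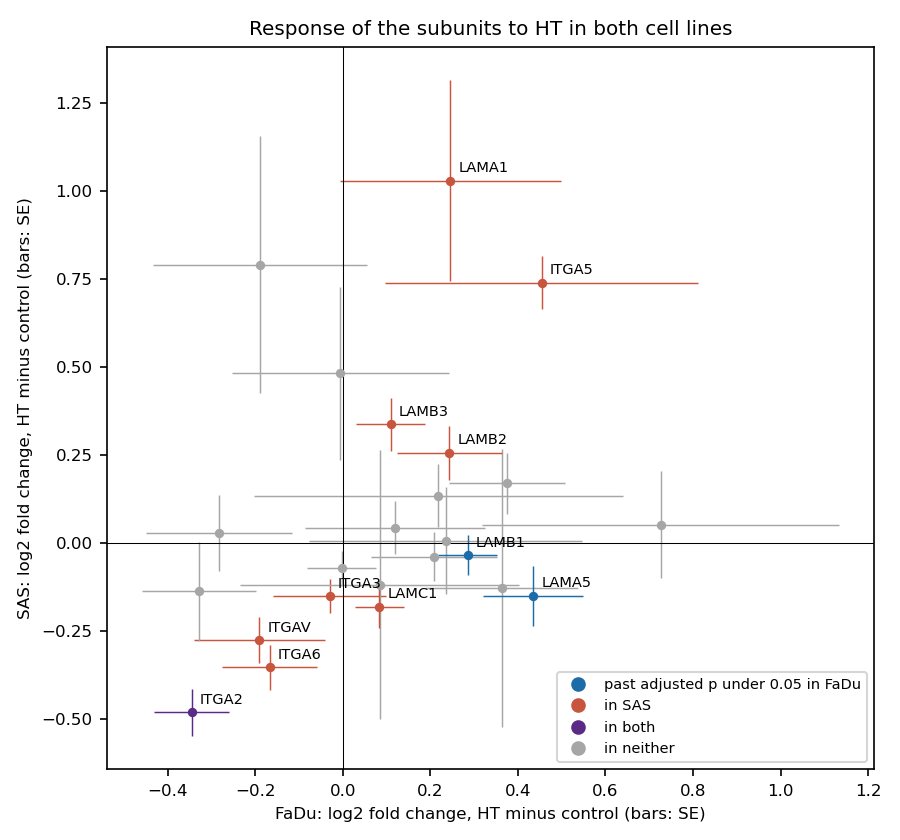
Log2 fold change after HT in FaDu (x axis) and SAS (y axis) for 24 members, with bars of 1 SE. ITGA2 lies under 0 in both lines and ITGA5 above 0 in both, while LAMA5 and LAMB1 lie to the right, above 0 in FaDu and near or under 0 in SAS.

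Other genes of the same structures give the setting of these subunits. The lists of these genes were chosen with earlier results of these data known. Of 16 listed basement membrane genes 14 were tested between the controls and 7 were altered, where 38.1% of all tested genes were, 6 of them higher in SAS (16.9% of all). These included the collagen IV chains COL4A1 (-3.21 ± 0.20), COL4A2 (-2.86 ± 0.24) and COL4A6 (-2.54 ± 0.31), the netrin NTN4 (-2.01 ± 0.14) and SPARC, a collagen-binding matrix protein (790 CPM in SAS controls and 6 counts in all in FaDu controls). NID1, the nidogen that links laminin to collagen IV, was the reverse, at 80.6, 37.2 and 39.5 CPM in FaDu controls and 2 counts in all in SAS controls, a ratio of 1370 (95% counting interval 378 to 11300). The median of the list was -0.57, against 0.03 over all tested genes. Some of these genes, such as SPARC and NID1, passed the filter through the line in which they are high and had to differ. The counts and the median thus describe the genes that could be tested. No basement membrane gene was altered by a treatment in edgeR (0 in RT, HT and HT + RT in both lines, with 0, 5 and 3 at an unadjusted p under 0.05 in FaDu and 1, 7 and 6 in SAS), and DESeq2 altered 0 in each. Of all tested genes 4.97% and 5.72% were altered by HT and HT + RT in FaDu and 6.03% and 6.36% in SAS. At an adjusted p under 0.05 alone, 2 and 3 of 14 listed genes passed in FaDu (17.6% and 19.3% of all), and 4 of 12 and 5 of 13 in SAS (23.6% and 25.1%).

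DAG1, which encodes dystroglycan, a laminin receptor outside the integrin family, was picked out after its values were seen. It was measured at 211, 216 and 218 CPM in FaDu controls and at 130, 138 and 130 CPM after HT, and at 166, 152 and 173 CPM in SAS controls and 114, 120 and 111 CPM after HT. It fell in both lines without overlap (-0.68 ± 0.06, adjusted p = 0.000189 in FaDu and -0.50 ± 0.07, adjusted p = 0.00017 in SAS).

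All 4 listed partners of the hemidesmosome passed an adjusted p under 0.05 between the controls (75.0% of all tested genes), and 2 were altered in opposite directions (38.1%). COL17A1, the transmembrane collagen that binds ITGA6 and ITGB4, was measured at 701, 394 and 403 CPM in FaDu and at 85.2, 84.5 and 125 CPM in SAS (2.37 ± 0.22, adjusted p = 2.98e-06). PLEC, the plectin that ties ITGB4 to keratin, was measured at 316, 359 and 337 CPM in FaDu and at 1150, 1280 and 1370 CPM in SAS (-1.88 ± 0.08, adjusted p = 7.6e-09). The groups of neither overlapped, while ITGB4 itself was not called different between the lines.

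The tested matrix ligands of integrins differed widely between the lines, in a list chosen with earlier results of these data known. Of 16 listed ligands 13 were tested between the controls and 13 were altered (38.1% of all tested genes), 8 higher in SAS (16.9%) and 5 in FaDu (21.2%), with a median of -2.80. Some, such as FBN2, passed the filter through the line in which they are high and had to differ. The counts and the median thus describe the listed ligands that could be tested, not integrin ligands in general. Fibronectin, FN1, the ligand of ITGA5, was measured at 5.68, 6.73 and 6.12 CPM in FaDu controls and at 723, 1020 and 1300 CPM in SAS controls (-7.33 ± 0.22, adjusted p = 7.63e-10). THBS2 (-6.44 ± 0.16), TNC (-6.12 ± 0.32), THBS1 (-5.70 ± 0.07), TGFBI (-5.70 ± 0.16) and CYR61 (-5.57 ± 0.09), all matrix proteins that bind integrins, were likewise higher in SAS. Fibrillins were the reverse: FBN2 had 1381 counts in FaDu controls and 0 in SAS controls, at least 390-fold against the floor of 3 counts.

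Heat also moved several ligands. CYR61 was measured at 20.3, 17.6 and 15.9 CPM in FaDu controls and at 211, 219 and 232 CPM after HT (3.65 ± 0.10, adjusted p = 1.02e-07). In SAS it was measured at 878, 875 and 846 CPM in controls and at 665, 775 and 661 CPM after HT (-0.30 ± 0.06, adjusted p = 0.00535, and 0.0651 with all 8 groups in 1 fit). CYR61 thus rose in FaDu and fell in SAS, whose heated libraries still held the higher level. After HT + RT it rose in FaDu (3.88 ± 0.09, adjusted p = 2.08e-08) and was not called in SAS (-0.14 ± 0.06, adjusted p = 0.124). THBS1 rose in FaDu, from 18.8, 17.5 and 18.7 CPM to 47.7, 39.9 and 75.6 CPM (1.59 ± 0.22, adjusted p = 0.00166), and in SAS was at -0.26 ± 0.11 (adjusted p = 0.11). CTGF rose in both, by 2.31 ± 0.33 on the log2 scale in FaDu and 2.45 ± 0.16 in SAS. These 3 ligands of 13 tested were altered upward by HT in FaDu (4.29% of all tested genes), and CTGF alone of 11 in SAS (5.31%), and the same genes were altered upward by HT + RT (5.08% and 5.76%).

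CTGF was also altered by RT in SAS, at 17.7, 27.1 and 23.1 CPM against 7.05, 10.3 and 10.4 CPM in controls (1.29 ± 0.18, adjusted p = 0.0332). Without SAS control replicate 1 or 2, or SAS RT replicate 2 or 3, the adjusted p of CTGF was 0.156, 0.102, 0.204 or 0.0562. In FaDu, CTGF was at 4.06, 4.1 and 3.36 CPM after RT and at 0.631, 1.22 and 1.93 CPM in controls (1.56 ± 0.33, adjusted p = 0.343), and CYR61 at 55.5, 37.9 and 38.5 CPM after RT (1.29 ± 0.16, adjusted p = 0.054). DESeq2 altered both in FaDu (adjusted p = 0.00768 for CTGF and 9.81e-13 for CYR61), as did the fit with the replicate as a block (0.000245 and 8.17e-13), all 8 groups in 1 fit (0.0272 and 9.31e-06), no filter for low counts (9.12e-07 and 9.54e-35) and FaDu replicate 1 left out of every group (0.00799 and 2.32e-11). In edgeR with 1 library left out, the adjusted p of CTGF ran from 0.319 to 0.883 and that of CYR61 from 0.00483 to 0.672, the calls of CYR61 being made without FaDu control replicate 1 (0.0478) or FaDu RT replicate 1 (0.00483). The irradiation dose differs between the lines.

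**Figure D5:**
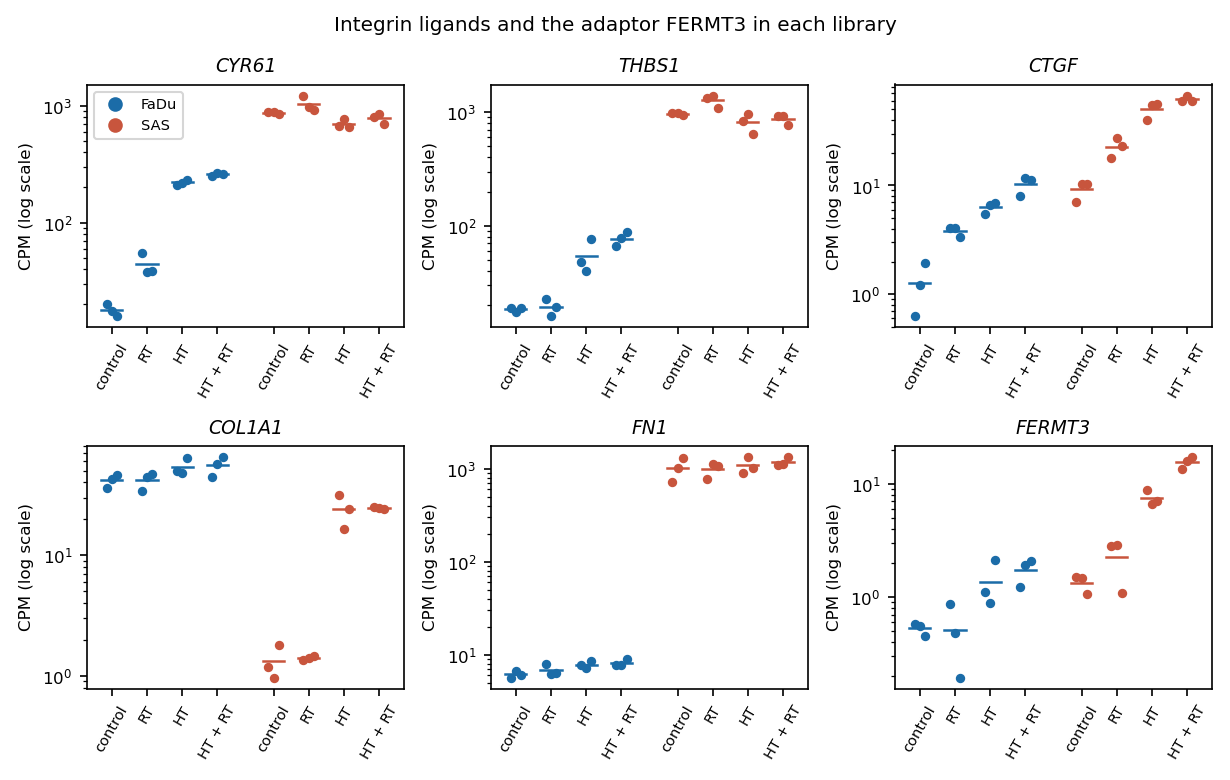
CPM of CYR61, THBS1, CTGF, COL1A1, FN1 and FERMT3 in each library of the 8 groups, on a log axis, with the group mean as a line. CYR61 and THBS1 rise with heat in FaDu, from levels far under those of SAS, while COL1A1 rises with heat in SAS from a level far under that of FaDu.

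Of 29 listed adaptors between integrin tails and actin, 29 were tested between the controls and 11 were altered, about the share among all tested genes (38.1%), 9 of them higher in SAS (16.9%). These included the focal adhesion kinase PTK2 (-1.92 ± 0.06), the tensin TNS2 (-2.56 ± 0.15) and the talin TLN1 (-1.19 ± 0.08), whereas the talin TLN2 (1.53 ± 0.18) was higher in FaDu. HT altered 2 of 29 adaptors in FaDu (4.97% of all tested genes) and 1 of 28 in SAS (6.03%). HT + RT altered 2 of 29 in FaDu (5.72%) and 1 of 28 in SAS (6.36%). After heat FERMT3, the kindlin of blood cells, which activates beta subunits, rose in both lines: in SAS from 1.5, 1.48 and 1.06 CPM to 8.85, 6.69 and 7.04 CPM (2.48 ± 0.22, adjusted p = 6.46e-06), and in FaDu from 0.578, 0.561 and 0.452 CPM to 1.1, 0.887 and 2.11 CPM (1.39 ± 0.41, adjusted p = 0.0464). The adjusted p of FERMT3 in FaDu was 0.0872, 0.12 or 0.162 without control replicate 1, 2 or 3, 0.161 without HT replicate 3 and 0.0908 in DESeq2. TNS4, a tensin without the actin-binding part, fell in FaDu after HT (-1.03 ± 0.15, adjusted p = 0.00251), with -0.96, -0.95 and -0.90 without FaDu control replicate 1 or FaDu HT replicate 2 or 3. Of the 11 listed membrane partners 10 were tested and 2 were altered between the controls (38.1% of all tested genes), both higher in SAS: CAV1 (-1.56 ± 0.11) and the urokinase receptor PLAUR (-2.15 ± 0.23), which also rose in FaDu after HT + RT (1.17 ± 0.23, adjusted p = 0.00743, and 0.98 on the log2 scale without FaDu control replicate 3).

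Markers of cell types were read because several members are named for leukocytes, platelets or muscle. In both lines 10 of 10 squamous epithelial genes reached 1 CPM, with a summed level of 9860 ± 244 CPM in FaDu controls and 3760 ± 182 CPM in SAS controls, led by KRT17 at 4290 and 1480 CPM. Between the controls 8 of them were altered (38.1% of all tested genes), 7 higher in FaDu (21.2%) and 1 in SAS (16.9%). Of 10 leukocyte genes 1 reached 1 CPM in FaDu controls and 2 in SAS controls, with sums of 6.03 ± 0.656 and 12.0 ± 2.63 CPM, led by CD14 at 5.32 and 8.06 CPM. Of these 10, 2 were tested between the controls and both were higher in SAS: CSF1R (-4.45 ± 0.50, adjusted p = 1.24e-05), at 0.105, 0.255 and 0.123 CPM in FaDu and 3.37, 2.11 and 5.57 CPM in SAS, and CD14 (-0.58 ± 0.18, adjusted p = 0.0119). CSF1R, a receptor of macrophages, thus differed in the direction of ITGB2. PTPRC, a general leukocyte gene, had 8 counts over the FaDu controls and 0 in all 4 SAS groups, where ITGB2 was at 61.3 CPM in controls. Of 5 platelet genes 0 reached 1 CPM in either line, where ITGA2B was under 3 CPM. Of 6 endothelial genes 3 reached 1 CPM in FaDu controls and 2 in SAS controls, with sums of 8.02 ± 0.614 and 16.4 ± 4.96 CPM, led by CDH5 at 4.17 and 14.4 CPM. These genes did not go the same way: CDH5 was higher in SAS (-1.75 ± 0.26, adjusted p = 9.97e-05), while PECAM1 (2.32 ± 0.57, adjusted p = 0.00342) and VWF (0.64 ± 0.26, adjusted p = 0.0455) were higher in FaDu.

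Of 8 fibroblast genes, COL1A1 alone reached 1 CPM in either line, with list sums of 42.5 ± 5.28 CPM in FaDu controls and 2.09 ± 0.431 CPM in SAS controls. COL1A1, a chain of the collagen that ITGA1 and ITGA2 bind, was measured at 1.18, 0.969 and 1.82 CPM in SAS controls and at 31.4, 16.5 and 23.9 CPM after HT, where the list sum was 25.3 ± 7.49 CPM. It rose without overlap in SAS (4.18 ± 0.28, adjusted p = 6.35e-07), while COL1A2, which encodes the partner chain, had 4 counts over the SAS controls and 13 after HT, and COL3A1 had 1 and 1. In FaDu COL1A1 was at 35.8, 42.9 and 46.2 CPM in controls and at 49.4, 48.1 and 63.6 CPM after HT (0.39 ± 0.14, adjusted p = 0.0873). The part of these markers in the members' results was not tested.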

How the data were processed

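The authors deposited raw counts of reads per gene for 24 libraries, whole numbers in tables that each pair 2 groups, in which the recurring control columns were identical. Reads were demultiplexed with bcl2fastq by the authors, and the aligner, annotation and strand of counting are not stated; the build named in the labels, of another species, was not used, since the identifiers are human. Genes were named with GENCODE v29, which matched 56898 of 57500 genes (0.0217% of counts unmatched). Members and gene lists were chosen with earlier results of these data known. In R 4.3.3, edgeR 4.0.16 fitted each comparison across all genes (TMM normalization, filterByExpr with a count minimum of 10, quasi-likelihood test, Benjamini-Hochberg adjustment). SE is the log2 fold change over the square root of F. CPM use TMM factors over all 24 libraries. Alternatives were DESeq2 1.42.0, its size factors, other filters, all 8 groups in 1 fit, each library left out, and the replicate as a block, printed in the report for treatment comparisons in which libraries of the same replicate were correlated above 0.1, for both interactions, and for ITGAX after HT, the member whose line call it changed. By the naming rule, values per library were to be given for members altered between controls, ITGB1 and up to 6 members past adjusted p per treatment comparison, and altered genes of each list named, up to 6. The other members, DAG1, AGRN and the other list genes without an altered call were named after their values were seen.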

Additional observations from a re-analysis of the deposited data

Results flagged for a closer look

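The results in this part were picked out because the response of FaDu and SAS to the same treatment differed in an interaction test across all genes in edgeR (FaDu minus SAS, log2 scale, adjusted p under 0.05). Heat shock genes and FBN2, with 0 counts in SAS controls, were left out. HT + RT used a different irradiation dose in each line.

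Among the members, LAMA5 had interactions of 0.61 for HT and 0.57 for HT + RT, with a higher response in FaDu. LAMB1 had 0.35 for HT and 0.39 for HT + RT, also higher in FaDu, and the call for HT was lost with no filter for low counts (adjusted p = 0.12).

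Among the listed genes, AGRN, a basement membrane proteoglycan, had 0.43 for HT (adjusted p = 0.00352) and 0.40 for HT + RT (0.00849). It fell in SAS (-0.25 and -0.23) and was not called in FaDu (0.15 and 0.14). For HT + RT the call of AGRN was lost without FaDu HT + RT replicate 3, SAS control replicate 2 or 3, or SAS HT + RT replicate 1 or 3 (adjusted p from 0.0507 to 0.0631). LIMS1, an adaptor, had -0.39 for HT + RT (adjusted p = 0.0434), falling in FaDu. Its call was lost without FaDu control replicate 1 or 3, FaDu HT + RT replicate 3, SAS control replicate 2 or SAS HT + RT replicate 3 (adjusted p from 0.0545 to 0.121), with FaDu replicate 1 left out of every group (0.0843) and with no filter for low counts (0.0664).

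CYR61 had 3.98 for HT and 4.05 for HT + RT, rising in FaDu. THBS1 had 1.88 for HT and 2.28 for HT + RT. COL1A1 had -3.76 for HT and -3.76 for HT + RT, rising in SAS. FERMT3 had -1.72 for HT + RT, having risen in both lines and more in SAS, with an adjusted p of 0.0101, and 0.0543 with all 8 groups in 1 fit. Its interaction for HT did not pass (adjusted p = 0.248).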

How the results depend on the processing

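The 4 line comparisons kept their counts of called members within 1.5 times the reported ones under each alternative, and no result changed direction among those called. For treatments, members past an adjusted p under 0.05 numbered as follows. With no filter for low counts: 5 in FaDu HT (3 reported) and 5 in FaDu HT + RT (2 reported), 1 in SAS RT (0 reported), and 1 in the interaction with HT (2 reported), without LAMB1. With the replicate as a block: 1 in FaDu RT (0), 12 in FaDu HT, 8 in FaDu HT + RT, 3 in SAS RT, and 4 and 7 in the interactions with HT and HT + RT (2 each). With all 8 groups in 1 fit: 4 in SAS HT + RT (8), without ITGA3, ITGA4, ITGA5, ITGA6 and LAMB2 and with LAMA2. With FaDu replicate 1 left out of every group, an alternative chosen after seeing the data: 1 in FaDu RT, 7 in FaDu HT and 8 in FaDu HT + RT. Leaving out 1 library gave 0 to 3 in FaDu HT, 1 to 4 in FaDu HT + RT, 6 to 7 in SAS HT + RT, and 0 to 3 in either interaction.

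With the fold threshold as well, reported counts were 1 in SAS HT, 1 in SAS HT + RT and 0 elsewhere. Dropping that threshold gave 3 and 2 in FaDu HT and HT + RT, 9 and 8 in SAS, and 2 in each interaction. SAS HT had 2 with all 8 groups in 1 fit, which added ITGB7, and SAS HT + RT had 2 with no filter, which added ITGA10. FaDu HT + RT had 1, ITGA5, with FaDu replicate 1 left out. Leaving out 1 library gave 0 to 1 in FaDu HT + RT, SAS HT, SAS HT + RT and the interaction with HT. Apart from fewer libraries or other genes entering the fit, the cause was not tested. With 3 libraries a group, smaller differences in members at a few CPM or less, such as LAMA1, ITGAX and LAMA2, may go uncalled. The size of difference that can be called at such levels was not tested.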

Other observations

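LAMA2, a laminin chain of muscle, was at 1.31, 2.67 and 1.11 CPM in SAS after HT + RT and at 1.12, 0.627 and 0.879 CPM in SAS controls, with a log2 fold change of 0.96 ± 0.40 (edgeR, adjusted p = 0.102). It passed with all 8 groups in 1 fit (0.0363) and with no filter for low counts (0.0431). After HT in SAS, the largest values among members that did not pass were those of ITGAX (0.79 ± 0.37, adjusted p = 0.145) and ITGA7 (0.48 ± 0.25, adjusted p = 0.187). ITGAX was at 1.68, 1.32 and 1.03 CPM after HT and at 0.534, 0.684 and 1.11 CPM in controls.

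ITGB7, a beta subunit of lymphocytes, had 169 counts over all libraries, and 42.1% of its exon length overlaps ZNF740 on the opposite strand, which had 30650 counts. FBN2, a fibrillin with an integrin-binding stretch, was at 0 counts in SAS controls and at 12, 8 and 16 counts in SAS after RT, HT and HT + RT.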
